A study of Homo sapiens with 9 samples.

Results

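The cytosolic ribosomal protein genes encode the proteins of the large and small subunits of the ribosome in the cytoplasm. They were taken as every gene symbol in the deposited count table made of RPL or RPS, a number and at most a closing A or X, together with RPLP0, RPLP1, RPLP2 and RPSA. This gave 77 of the 21229 genes in the table, 46 of the large and 31 of the small subunit. All 77 passed the filter on low counts that left 16232 genes for testing. FAU and RACK1, which also encode parts of the ribosome, and paralogs such as RPL22L1 have other symbols and are counted in a list of their own.

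The RNA came from hematopoietic cells grown out of H1, a line of human embryonic stem cells in wide use. There were 3 groups of 3 libraries. The first held CD90+ cells that overexpressed GATA2, a transcription factor of blood stem and progenitor cells (here GATA2 OE CD90+). The others held control CD90+ cells and control CD38+ cells with no overexpression, where CD90 and CD38 are surface antigens used to sort the cells. The labels do not state the vector or promoter behind the overexpression, or how many clones carried it. They also do not tie the 3 libraries of a group to separate cultures, so p-values measure the spread between these libraries, which may be technical.

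A ribosome holds its proteins in fixed proportion, and cells make the mRNAs of these proteins together and in large amounts. Most of these mRNAs start with a C followed by an unbroken run of pyrimidines (C or T in the gene), the 5′ terminal oligopyrimidine tract or TOP, through which mTOR signalling and the RNA-binding protein LARP1 set their translation. In blood formation the genes are known for Diamond-Blackfan anaemia, a failure of red cell production caused by loss of function of one of a number of ribosomal protein genes, and for RPS14, whose loss of one copy contributes to the anaemia of the 5q- syndrome.

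The starts of the genes show what the family shares in sequence. RefSeq (GRCh38.p14) listed 77 starts for 62 of the 77 genes, each with 250 bases before and 50 bases after the start. A run of at least 6 pyrimidines lying between 5 bases before and 10 bases after the start was present at 54 of the 77 starts (70.1%), against 13.9% of the 35116 starts in the whole table. The first transcribed base was a C at 66.2% of the starts of the family and at 14.7% of all starts. The letters CCGGAAG, on either strand of the 300 bases, were found at 33.8% of the family's starts and 10.3% of all starts, and TATAAA between 40 and 16 bases before the start at 2.60% and 2.30%. A match is a description of these letters only. Shown here are 20 bases on each side of the start, 5′ to 3′ on the coding strand. Capitals mark the longest pyrimidine run inside the window from 5 bases before to 10 bases after the start, where it had at least 6 bases there. A run that goes on past the window's edge, as in RPS19, RPLP1 and RPS10, is in capitals only inside it. The first 3 genes had some of the highest fold changes of the family, the next 4 were called lower in control CD90+ than in control CD38+ cells (of these only RPS19 with library size as the only scaling), and RPL36A was the gene of the family that fell in GATA2 OE CD90+ against control CD90+ cells.
RPS14 (chr5:150449720-150449759, minus strand): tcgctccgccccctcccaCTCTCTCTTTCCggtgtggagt
RPS18 (chr6:33272055-33272094, plus strand): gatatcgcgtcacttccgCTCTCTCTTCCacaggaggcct
RPL18 (chr19:48619159-48619198, minus strand): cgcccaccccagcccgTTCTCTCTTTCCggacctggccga
RPS19 (chr19:41860235-41860274, plus strand): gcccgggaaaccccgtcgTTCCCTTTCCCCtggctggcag
RPS27 (chr1:153990742-153990781, plus strand): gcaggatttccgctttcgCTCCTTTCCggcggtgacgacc
RPLP1 (chr15:69452798-69452837, plus strand): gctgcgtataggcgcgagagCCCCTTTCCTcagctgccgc
RPS10 (chr6:34426050-34426089, minus strand): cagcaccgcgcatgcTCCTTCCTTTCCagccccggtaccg
RPL36A (chrX:101390991-101391030, plus strand): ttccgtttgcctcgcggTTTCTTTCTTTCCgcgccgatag
RPL4 and RPL9 are shown for genes whose listed start had no such run inside the window. In both a pyrimidine run begins 5 bases after the start and goes on past the window's edge, which leaves 5 of its bases inside.
RPL4 (chr15:66504836-66504875, minus strand): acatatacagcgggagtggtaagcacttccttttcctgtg
RPL9 (chr4:39458903-39458942, minus strand): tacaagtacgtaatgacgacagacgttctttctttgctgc
The genes shown were chosen by their fold changes and do not stand for the family. RPL4 and RPL15, among the highest in control CD90+ over control CD38+ cells, had no run of at least 6 bases inside the window. In GATA2 OE CD90+ over control CD90+ cells the median log2 fold change was 0.96 over the 52 genes with a run inside the window. It was 0.87 over the 10 with none there. In control CD90+ over control CD38+ cells these medians were 0.27 and 0.21. The medians are descriptions, with no test. A gene with no run inside the window can carry one that crosses its edge or lies past it. The split therefore does not separate genes with and without a tract.

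Counts assigned to genes totalled 37500192 to 39582736 per GATA2 OE CD90+ library, 42577569 to 47261093 per control CD90+ library and 42695005 to 45561088 per control CD38+ library. GATA2 averaged 376 ± 12.8 CPM in GATA2 OE CD90+, 87.3 ± 1.93 CPM in control CD90+ and 569 ± 16.3 CPM in control CD38+ libraries, so it was higher in the overexpressing cells than in the CD90+ controls but below the CD38+ controls. THY1, which encodes CD90, was at 3.06 ± 0.439, 4.43 ± 0.632 and 0 CPM, and CD38 at 2.22 ± 0.514, 4.37 ± 0.382 and 122 ± 2.39 CPM in the same order. Levels are CPM, gene counts brought to one common library total with TMM factors, a scaling that corrects library sizes for differences in RNA composition. They are given per library or as mean ± SD (n = 3). A gene was called higher or lower where the quasi-likelihood test of edgeR gave an adjusted p under 0.05, by the Benjamini-Hochberg method over the 16232 genes. In bulk libraries, fewer cells of a type and less RNA per cell cannot be told apart.

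The family took a much larger share of the RNA in GATA2 OE CD90+ cells. In the libraries of replicates 1, 2 and 3 it held 7.93%, 8.06% and 8.05% of all gene counts in GATA2 OE CD90+ cells, 4.87%, 4.83% and 4.84% in control CD90+ cells, and 3.04%, 2.94% and 2.85% in control CD38+ cells. The groups did not overlap. Means were 8.01% ± 0.0738, 4.84% ± 0.0215 and 2.94% ± 0.0944 (SD, n = 3), so the share was 1.65 times as high in GATA2 OE CD90+ as in control CD90+ cells and 1.65 times as high in control CD90+ as in control CD38+ cells. These shares use no scaling between libraries. Left without the mitochondrial genes and the 20 most counted other genes outside the family, the shares were 9.08% ± 0.0519, 5.67% ± 0.0252 and 3.44% ± 0.114.

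**Figure D1:**
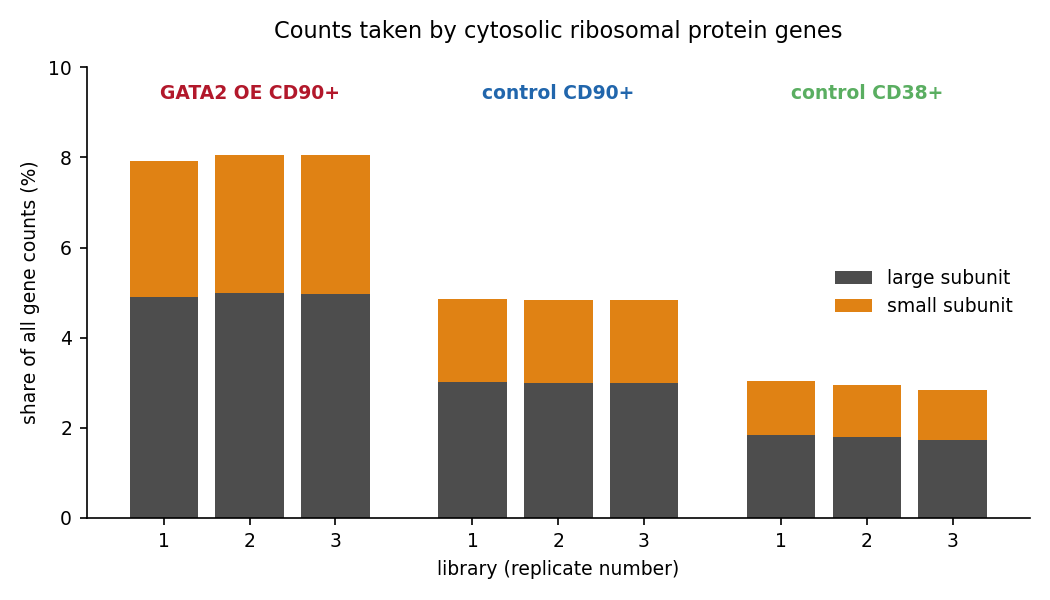
Share of all gene counts (%, vertical axis) taken by the 77 ribosomal protein genes in each of the 9 libraries, split into large-subunit (grey) and small-subunit (orange) genes. Bars stand near 8.01% in GATA2 OE CD90+, 4.84% in control CD90+ and 2.94% in control CD38+ libraries, with little spread within a group.

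Both subunits took part. Large-subunit genes held 4.96% ± 0.0510 of counts in GATA2 OE CD90+, 2.998% ± 0.0138 in control CD90+ and 1.79% ± 0.0530 in control CD38+ libraries. Small-subunit genes held 3.05% ± 0.0236, 1.85% ± 0.0107 and 1.15% ± 0.0414 in the same order. The ratio of small-subunit to large-subunit counts was 0.616 ± 0.00230 in GATA2 OE CD90+ and 0.616 ± 0.00320 in control CD90+ libraries, and 0.643 ± 0.00410 in control CD38+ libraries. The balance of the subunits thus differed by less than the spread between libraries within the CD90+ cells, and control CD38+ libraries lay above both.

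Marker genes of other cell types moved between the same groups. Of all genes tested, 38.0% were called higher and 39.6% lower in GATA2 OE CD90+ than in control CD90+ cells. In control CD90+ against control CD38+ cells these shares were 41.1% and 39.3%. The 14 macrophage markers summed to 580 to 605 CPM in GATA2 OE CD90+, 2155 to 2198 CPM in control CD90+ and 2386 to 2433 CPM in control CD38+ libraries, and 12 of the 13 tested were lower and 0 higher in GATA2 OE CD90+ than in control CD90+ cells (edgeR, adjusted p under 0.05), while 7 were higher and 5 lower in control CD90+ than in control CD38+ cells. The 12 mesenchymal markers summed to 290.3 to 310.4 CPM, 1239 to 1261 CPM and 40.2 to 44.4 CPM in that order, and all 12 were lower in GATA2 OE CD90+ than in control CD90+ cells and higher in control CD90+ than in control CD38+ cells. POSTN was at 0 in control CD38+ libraries. The 11 mast cell, basophil and eosinophil markers summed to 598 to 661 CPM, 232 to 239 CPM and 5524 to 5762 CPM, with 10 of 11 higher and 1 lower in GATA2 OE CD90+ than in control CD90+ cells and 2 higher and 8 lower in control CD90+ than in control CD38+ cells. The 13 erythroid markers summed to 466 to 547 CPM, 854 to 879.8 CPM and 251 to 260.1 CPM, with AHSP at 0 in control CD38+ libraries, and of 12 tested 3 were higher and 8 lower in the first comparison and 11 and 1 in the second. The 8 endothelial markers summed to 768 to 805 CPM, 468 to 476 CPM and 501 to 535 CPM, with EMCN at 0 in control CD38+ libraries, and 5 were higher and 2 lower in the first comparison and 5 and 1 in the second. Their part in the ribosomal protein results was not tested.

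Within the family the levels ranged widely. RPS2 had the most counts in both CD90+ groups, with 5.56% of the family's counts in GATA2 OE CD90+ and 5.41% in control CD90+ libraries, and RPS19 in control CD38+ libraries, with 4.73%. The first 18 genes held 50% of the family's counts in GATA2 OE CD90+, the first 17 in control CD90+ and the first 18 in control CD38+ libraries. The median gene of the family was at 786 CPM in GATA2 OE CD90+, 396 CPM in control CD90+ and 340.2 CPM in control CD38+ libraries, against 13.13, 14.52 and 13.99 CPM for the median of all genes tested. Levels were also set per length, as CPM per kilobase of a typical transcript in the GENCODE 29 annotation. This is the transcript of lower median length among a gene's coding transcripts in the basic set of that annotation. It need not be the gene's main mRNA. On this measure RPS2 stood first in both CD90+ groups with 4916 in GATA2 OE CD90+ and 2436 in control CD90+ libraries. In control CD38+ libraries RPS19 stood first with 3022, followed by RPLP1 with 2675 and RPS27 with 2122.

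In all 3 groups 6 genes were under 50 CPM, low for a ribosomal protein gene, among them RPL17, RPL26, RPL36A, RPS9 and RPS10. RPS18 was also under 50 CPM in control CD38+ libraries. In GENCODE 29, 5 of the 6 share at least 20% of their exon bases with another coding gene on the same strand, among them the read-through genes RPL17-C18orf32, RPL36A-HNRNPH2 and RPS10-NUDT3. RPS10 shares 71.1%, RPL17 53.5% and RPL36A 26.6% of its exon bases. These 5 genes had a median of 5.84 CPM, against 558 CPM for the other 72. Reads that fall on more than one gene or on a pseudogene may be dropped or split, and 76 of the 77 genes have at least 1 named pseudogene in the annotation, 1133 in all. RPL23A has the most, 91. How such reads were counted is not stated, so the levels are uncertain, and their part in the low counts was not tested.

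The comparison of GATA2 OE CD90+ with control CD90+ cells asked what GATA2 overexpression changed in the CD90+ fraction. Nearly the whole family was higher in the overexpressing cells, by close to a doubling. Of the 77 genes, 75 were called higher and 1 lower, where 38.0% of all genes tested were called higher and 39.6% lower. The median log2 fold change was 0.95, with the middle of the genes between 0.85 and 1.08, against -0.04 for all genes tested. At least 2-fold higher were 33 genes, where 1296 of all 16232 genes tested were. Among large-subunit genes 45 of 46 were higher, with a median log2 fold change of 0.99, and among small-subunit genes 30 of 31, with a median of 0.94. With library size as the only scaling, 73 genes were higher and 1 lower and the median was 0.71, while the median of all genes tested was -0.29. At that scaling all genes tested split into 4470 higher and 8101 lower calls, against 6175 and 6426 with TMM factors.

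**Figure D2:**
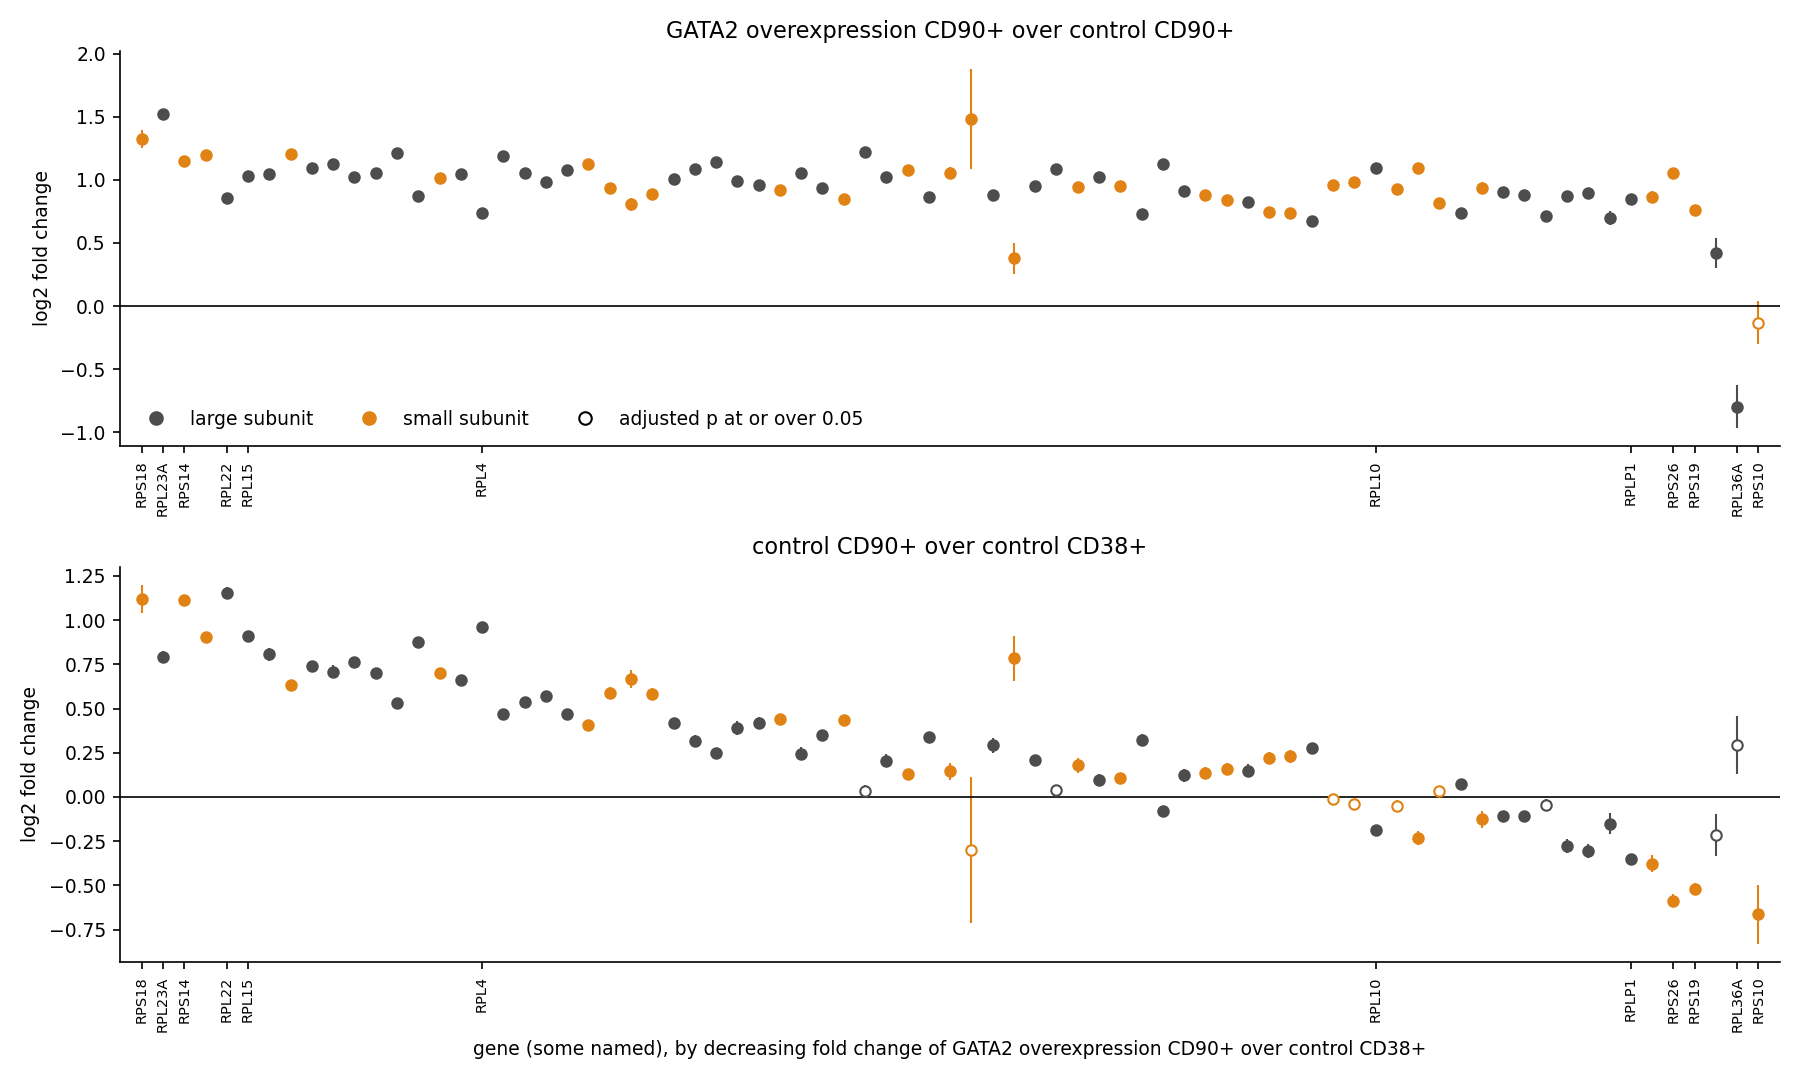
Log2 fold change (vertical axis, points with SE bars) of each of the 77 genes in GATA2 OE CD90+ over control CD90+ cells (top) and control CD90+ over control CD38+ cells (bottom), large subunit in grey and small subunit in orange, open where not called. Genes run from left to right by decreasing fold change of GATA2 OE CD90+ over control CD38+ cells, and 12 are named. In the top panel 75 genes lie above 0 and are called, and in the bottom panel 53 lie above and 14 below 0 as called, or 70 and 2 with library size only.

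Among the largest rises were those of RPL23A, RPS18, RPL36 and RPL18. RPL23A (ENSG00000198242.13, chromosome 17, 28719393 to 28724359, plus strand, GRCh38), which lies at the exit of the tunnel for the new protein, was at 582, 564 and 586 CPM in GATA2 OE CD90+ libraries, against 201, 202 and 198 CPM in control CD90+ libraries. It was 2.88-fold higher (log2 fold change 1.53 ± 0.031 SE, adjusted p = 6.91e-17). RPS18 (ENSG00000231500.6, chromosome 6, 33272010 to 33276510, plus strand), in the head of the small subunit, was at 227, 209.5 and 219 CPM in GATA2 OE CD90+ libraries, against 100.1, 73.6 and 87.9 CPM in control CD90+ libraries, with control CD90+ replicate 2 the lowest of the 6 libraries. It was 2.51-fold higher (log2 fold change 1.33 ± 0.073 SE, adjusted p = 2.89e-11). RPL18, one of the genes mutated in Diamond-Blackfan anaemia, was at 875, 911 and 915 CPM in GATA2 OE CD90+ libraries, against 400.3, 379 and 386 CPM in control CD90+ libraries, and was 2.32-fold higher (log2 fold change 1.21 ± 0.027 SE, adjusted p = 1.73e-16). RPL36, a large-subunit protein, was 2.33-fold higher (log2 fold change 1.22 ± 0.036 SE, adjusted p = 5.29e-15).

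Genes of each functional group were higher, where 38.0% of all genes tested were higher and all genes together had a median of -0.04 on the log2 scale. At the exit tunnel and port all 9 genes rose (median log2 fold change 0.90, and 8 of 9 with library size only), and in the head of the small subunit 13 of 14 (median 0.95). With library size only 4470 of all 16232 genes tested were higher. RPL5 and RPL11 carry the 5S ribosomal RNA into the large subunit, and when unassembled bind MDM2, the inhibitor of p53. RPL5 was 2.01-fold higher (log2 fold change 1.01 ± 0.023 SE, adjusted p = 2.25e-16) and RPL11 2.06-fold higher (log2 fold change 1.04 ± 0.026 SE, adjusted p = 8.34e-16). Of the P stalk, which recruits translation factors, all 3 genes rose: RPLP0 was 1.67-fold, RPLP1 1.8-fold and RPLP2 1.84-fold higher. RPS14 (ENSG00000164587.12, chromosome 5, 150442635 to 150449756, minus strand) was at 2005, 2047 and 2029.9 CPM in GATA2 OE CD90+ libraries, against 928, 919.6 and 889.9 CPM in control CD90+ libraries, and was 2.22-fold higher (log2 fold change 1.15 ± 0.028 SE, adjusted p = 6.78e-16). RPS6, the small-subunit protein phosphorylated downstream of mTOR, was 1.85-fold higher, RPSA, also known as a laminin receptor, 1.8-fold and RPS27A, made as a fusion with ubiquitin, 1.95-fold. RPL10, which joins the large subunit late in its assembly, was 2.14-fold higher and RPL38, known in mice for the translation of Hox mRNAs, 2.21-fold. RPL22, which in mice is needed for T cell development, was 1.81-fold higher. The genes of the Diamond-Blackfan list were higher in 18 of 19 cases, with a median log2 fold change of 0.94, near that of the family, and RPS10 was not called.

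The smaller values came mostly from low genes. RPL36A (ENSG00000241343.9, chromosome X, 101390824 to 101396154, plus strand), at the tRNA exit site of the large subunit, was at 2.61, 1.99 and 2.5 CPM in GATA2 OE CD90+ libraries, against 3.63, 4.53 and 4.17 CPM in control CD90+ libraries. It was the one gene called lower, 1.74-fold lower (log2 fold change -0.80 ± 0.17 SE, adjusted p = 0.00038). RPL36AL, a paralog outside the symbol rule that encodes nearly the same protein, was at 526 ± 10.6 CPM in GATA2 OE CD90+ and 271 ± 2.17 CPM in control CD90+ libraries (1.94-fold higher, adjusted p = 1.64e-13). RPS10 (ENSG00000124614.15, chromosome 6, 34417454 to 34426125, minus strand), at the mRNA entry of the small subunit, was at 2.14, 2.2 and 2.15 CPM in GATA2 OE CD90+ libraries, against 2.36, 2.16 and 2.6 CPM in control CD90+ libraries, with overlapping libraries and no call (log2 fold change -0.13 ± 0.17 SE, adjusted p = 0.499). RPS9 and RPL17 were 1.3-fold and 1.34-fold higher, with adjusted p = 0.00925 and 0.0036, and neither was called with library size only or with a length and GC trend removed, nor RPS9 with upper-quartile factors. Among abundant genes, RPL6 was 1.6-fold higher (log2 fold change 0.68 ± 0.024 SE, adjusted p = 6.44e-14) and RPL9 1.64-fold higher (log2 fold change 0.72 ± 0.033 SE, adjusted p = 2.61e-12), the 2 smallest rises among the 71 genes with a mean of 50 CPM or more.

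A second fit asked which genes departed from the change of the family as a whole. Here each library was scaled by the summed counts of the 77 genes, so that a value of 0 means a change equal to that of the family's total, and the factors used for all genes no longer enter. In GATA2 OE CD90+ against control CD90+ cells 24 of 77 genes were higher and 29 lower than the family total, and 24 were not called. For all genes tested on this scale 4.58% were higher and 82.4% lower. RPL23A was at 0.55 ± 0.032 SE, adjusted p = 1.76e-11 on the log2 scale, RPS18 at 0.35 ± 0.071 SE, adjusted p = 0.000167, RPL36 at 0.25 ± 0.042 and RPL18 at 0.24 ± 0.031. On the other side RPL6 was at -0.30 ± 0.029, RPL9 at -0.26 ± 0.032, RPLP0 at -0.23 ± 0.03, RPL4, which lines the exit tunnel, at -0.23 ± 0.03, and RPS19 at -0.21 ± 0.03, all called. RPS27A and RPL5 were at -0.01 ± 0.028 and 0.03 ± 0.031 and were not called. With TMM factors over the members in place of their sum, a setting chosen after the data had been seen, 32 genes were higher and 21 lower. RPL5 and RPL15 were then called higher, and RPLP2, RPS6 and RPS27, lower than the family total by the sum, were not called. Calls relative to the sum also depended on single libraries. Among the named genes, those of RPL11, RPLP2, RPS6, RPS26 and RPS27 were lost when certain single libraries were left out. RPL15 was called higher and RPL37 lower without control CD38+ replicate 1 or 3.

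The comparison of control CD90+ with control CD38+ cells asked how the CD90 fraction of the controls differs from the CD38 fraction. Here the family did not move together. Of the 77 genes 53 were called higher and 14 lower in control CD90+ cells and 10 were not called, where 41.1% of all genes tested were higher and 39.3% lower. With library size only the counts were 70 higher and 2 lower. The median log2 fold change was 0.25 against 0.03 for all genes tested, and single genes ranged from -0.66 to 1.15. With library size only the family's median was 0.66 while that of all genes shifted to 0.44, and all genes split into 9517 higher and 3854 lower calls, against 6679 and 6377 with TMM factors. Among large-subunit genes 33 were higher and 8 lower, with a median of 0.30, and among small-subunit genes 20 were higher and 6 lower, with a median of 0.16.

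At the high end, 5 genes were near or above a doubling. RPL22 (ENSG00000116251.10, chromosome 1, 6185020 to 6209389, minus strand) was at 135, 129 and 126 CPM in control CD90+ libraries, against 60.4, 56.8 and 58.4 CPM in control CD38+ libraries, and was 2.22-fold higher (log2 fold change 1.15 ± 0.032 SE, adjusted p = 2.21e-15). RPS18 was at 100.1, 73.6 and 87.9 CPM in control CD90+ libraries, against 42.7, 38.97 and 38.6 CPM in control CD38+ libraries, 2.17-fold higher, and RPS14 at 928, 919.6 and 889.9 CPM in control CD90+ libraries, against 439, 422 and 405 CPM in control CD38+ libraries. RPS14 was 2.16-fold higher (log2 fold change 1.11 ± 0.029 SE, adjusted p = 8.48e-16). RPL4 was 1.94-fold higher (log2 fold change 0.96 ± 0.022 SE, adjusted p = 1.29e-16) and RPL15, a large-subunit protein needed early in assembly and mutated in Diamond-Blackfan anaemia, 1.88-fold higher (log2 fold change 0.91 ± 0.025 SE, adjusted p = 1.81e-15). RPL11 was 1.58-fold and RPL5 1.33-fold higher, RPS6 1.5-fold and RPSA 1.35-fold.

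At the low end stood some of the most abundant genes. RPS19 (ENSG00000105372.7, chromosome 19, 41859918 to 41872926, plus strand), the gene most often mutated in Diamond-Blackfan anaemia, was at 1132, 1089 and 1105 CPM in control CD90+ libraries, against 1670.1, 1564 and 1534 CPM in control CD38+ libraries. It was 1.43-fold lower (log2 fold change -0.52 ± 0.031 SE, adjusted p = 7.91e-11). RPS26 (ENSG00000197728.11, chromosome 12, 56041351 to 56044697, plus strand), at the mRNA exit of the small subunit, was at 435, 421 and 441 CPM in control CD90+ libraries, against 682, 661 and 604 CPM in control CD38+ libraries, and was 1.5-fold lower (log2 fold change -0.59 ± 0.035 SE, adjusted p = 8.33e-11). Both were lower also with library size only, the 2 genes of the family called lower at that scaling. RPS27, a zinc-finger protein of the small subunit, was at 592, 582 and 587 CPM in control CD90+ libraries, against 832, 779.9 and 674 CPM in control CD38+ libraries, and was 1.3-fold lower, and RPLP1 of the stalk was 1.28-fold lower (adjusted p = 2.39e-06 and 1.03e-08). With library size only both had the opposite sign, at 0.033 for RPS27 and 0.058 for RPLP1 on the log2 scale. The other genes called lower were RPL8, RPL10, RPL26, RPL27, RPL35, RPL37, RPL41, RPS10, RPS12 and RPS21. RPL10 was 1.14-fold and RPL37 1.24-fold lower, and both had the opposite sign with library size only, at 0.22 and 0.10. RPS10 was at 2.36, 2.16 and 2.6 CPM in control CD90+ libraries, against 4.25, 3.9 and 3.1 CPM in control CD38+ libraries and was 1.58-fold lower (log2 fold change -0.66 ± 0.17 SE, adjusted p = 0.00167), a call lost with library size only. RPS27A was not called, at 613, 591 and 603 CPM in control CD90+ libraries, against 626, 613 and 586 CPM in control CD38+ libraries, nor, among others, were RPL9, RPL17, RPL30, RPL36, RPL36A, RPS3A, RPS20 and RPS23. Of the Diamond-Blackfan list 11 of 19 genes were higher and 7 lower (RPL26, RPL27, RPL35, RPS10, RPS19, RPS26 and RPS27), where 41.1% of all genes tested were higher and 39.3% lower, with a median log2 fold change of 0.12 against 0.03 for all genes, and with library size only 14 were higher and 2 lower. The P stalk had 2 genes higher and 1 lower, the exit tunnel and port 6 and 2 of 9, and the small-subunit head 8 and 3 of 14, against 2 and 0, 8 and 0, and 11 and 1 with library size only. At that scaling 9517 of all 16232 genes tested were higher and 3854 lower.

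**Figure D3:**
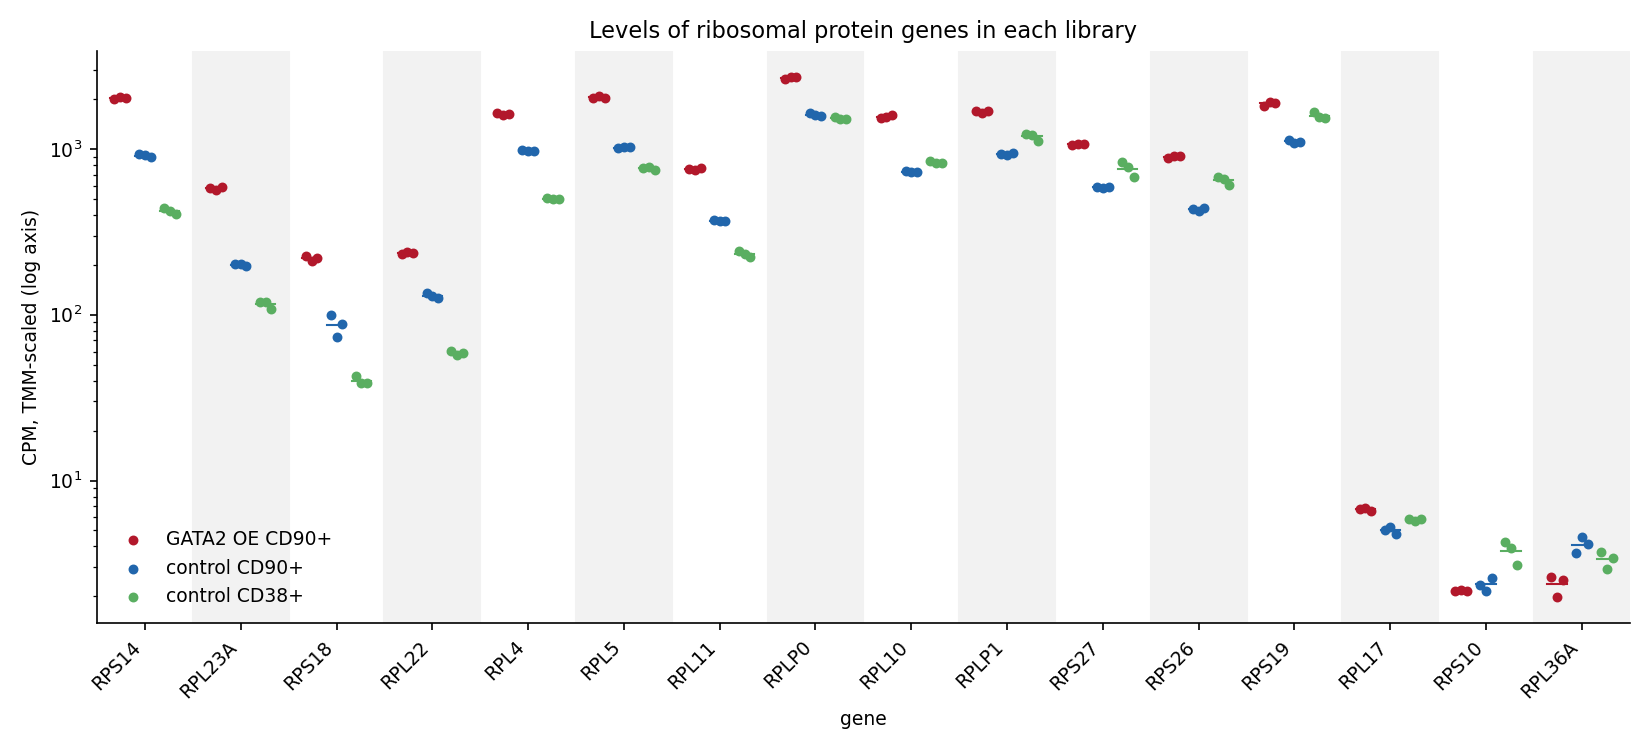
Level (CPM scaled by TMM factors, log axis) of 16 genes in each library, with GATA2 OE CD90+ (red) left of control CD90+ (blue) and control CD38+ (green). Points are libraries and short lines the means. RPS14, RPL23A, RPS18, RPL22, RPL4, RPL5 and RPL11 step down from left to right, while RPL10, RPLP1, RPS27, RPS26 and RPS19 are lowest in control CD90+ cells, an order that holds with library size only for RPS26 and RPS19.

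Relative to the family total, genes with a mean of 50 CPM or more ranged from -0.89 to 0.84 on the log2 scale in this comparison, against -0.30 to 0.55 between the CD90+ groups; the difference in range was not tested. In control CD90+ against control CD38+ cells 31 genes were higher, 36 lower and 10 not called, and on this scale 29.9% of all genes tested were higher and 50.9% lower. RPL22 was at 0.84 ± 0.036 SE, adjusted p = 2.54e-13, RPS18 at 0.81 ± 0.076, RPS14 at 0.80 ± 0.029 and RPL4 at 0.65 ± 0.031. RPS26 was at -0.89 ± 0.032 SE, adjusted p = 1.72e-14, RPS19 at -0.83 ± 0.03, RPS27 at -0.68 ± 0.041, RPLP1 at -0.66 ± 0.031 and RPL37 at -0.61 ± 0.035. RPS14 and RPS19 belong to the same subunit, which holds one copy of each, and stood at opposite ends. RPS14 made up 2.19% ± 0.0409 of the family's counts in control CD90+ and 1.26% ± 0.0103 in control CD38+ libraries, and RPS19 2.66% ± 0.0309 and 4.73% ± 0.0813 (SD, n = 3). Within the P stalk, RPLP2 was at -0.01 ± 0.036 and not called, while RPLP0, at -0.24 ± 0.03, and RPLP1 were lower than the family total.

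**Figure D4:**
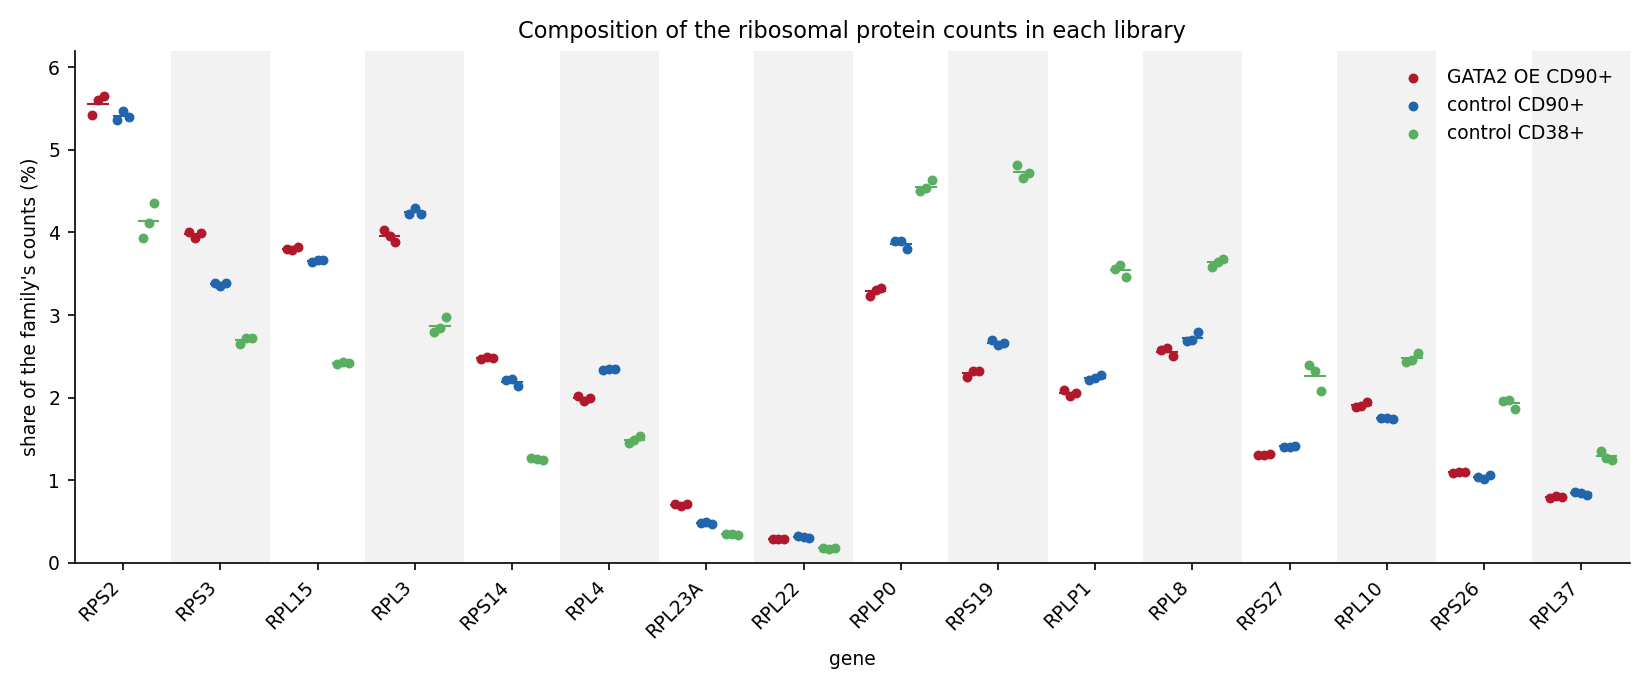
Share of the family's own counts (%) held by 16 genes in each library, with GATA2 OE CD90+ (red), control CD90+ (blue) and control CD38+ (green) from left to right within a gene. Points are libraries and short lines the means. The 8 genes from RPS2 to RPL22 held less of the family in control CD38+ than in either CD90+ group, and the 8 genes from RPLP0 to RPL37 held more.

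GATA2 OE CD90+ cells were also set against control CD38+ cells. This comparison shares its libraries with both others, so it adds no independent evidence, and the values are given side by side. Of the 77 genes 74 were higher, 2 were lower (RPL36A and RPS10) and RPL17 was not called, where 43.3% of all genes tested were higher and 39.9% lower. The median log2 fold change was 1.20 against 0.07 for all genes. At least 2-fold higher were 51 genes of the family, where 3735 of all 16232 genes tested were. Large-subunit genes were higher in 44 of 46 cases (median 1.27) and small-subunit genes in 30 of 31 (median 1.12). RPS18, at 227, 209.5 and 219 CPM in GATA2 OE CD90+ libraries, against 42.7, 38.97 and 38.6 CPM in control CD38+ libraries, was 5.45-fold higher (log2 fold change 2.45 ± 0.08 SE, adjusted p = 1.21e-14). RPL23A was 4.99-fold, RPS14 4.8-fold and RPL22 4.01-fold higher. RPL36A was 1.42-fold lower (log2 fold change -0.50 ± 0.17 SE, adjusted p = 0.0123), a call lost with library size only and without GATA2 OE CD90+ replicate 2 or control CD38+ replicate 1. The smallest rise over 50 CPM was that of RPS19, at 1824, 1913 and 1903 CPM in GATA2 OE CD90+ libraries, against 1670.1, 1564 and 1534 CPM in control CD38+ libraries, with a log2 fold change of 0.24 ± 0.031 SE. RPS26, RPS27 and RPLP1 followed at 0.47, 0.49 and 0.50 on the log2 scale.

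Side by side, the log2 fold change of RPS14 was 1.15 in GATA2 OE CD90+ over control CD90+ cells and 1.11 in control CD90+ over control CD38+ cells, that of RPL22 0.85 and 1.15, and that of RPL4 0.74 and 0.96. For RPS26 the values were 1.05 and -0.59, for RPS19 0.76 and -0.52, and for RPL10 1.10 and -0.19. Relative to the family total, 31 genes were higher and 38 lower in GATA2 OE CD90+ than in control CD38+ cells, where 13.5% of all genes tested were higher and 74.2% lower. RPS18 was at 1.16 ± 0.075, RPL23A at 1.04 ± 0.033 and RPS14 at 0.98 ± 0.029, against -1.04 ± 0.03 for RPS19 and -0.81 ± 0.032 for RPS26. RPL17, one of the low genes, was at -1.08 ± 0.12.

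The family's transcripts are short, with a median length of 691 nucleotides for a typical transcript (range 359 to 1864) against 2161 for all genes tested. In control CD90+ over control CD38+ cells log2 fold change and length had Pearson's r = 0.27 and Spearman's rho = 0.28 across the 77 genes, which share the same libraries and are not independent. Among the 71 genes with a mean of 50 CPM or more, the 22 under 600 nucleotides had a median log2 fold change of 0.18 with 7 lower calls, the 29 of 600 to under 900 nucleotides 0.34 with 2, and the 20 of 900 or more 0.40 with 3. In GATA2 OE CD90+ over control CD90+ cells r was -0.06 and rho -0.14, and the medians were 1.04, 0.96 and 0.95. Over all 16208 genes with a length, r was -0.13 and rho -0.25 in this comparison. Over the same genes r was 0.06 and rho 0.08 in control CD90+ over control CD38+ cells. RPS26, one of the genes lower in control CD90+ than in control CD38+ cells, has a typical transcript of 1140 nucleotides in the annotation. The length of its main mRNA in these cells was not measured. The share of G and C in the transcript had r = 0.07 with the log2 fold change of control CD90+ over control CD38+ cells and 0.13 with that of GATA2 OE CD90+ over control CD90+ cells. When a trend of length and GC over all genes was removed, the family's median was 0.69 in GATA2 OE CD90+ over control CD90+ cells and 0.45 in control CD90+ over control CD38+ cells. RNA quality was not measured in these files, and the part of length in the result was not tested.

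**Figure D5:**
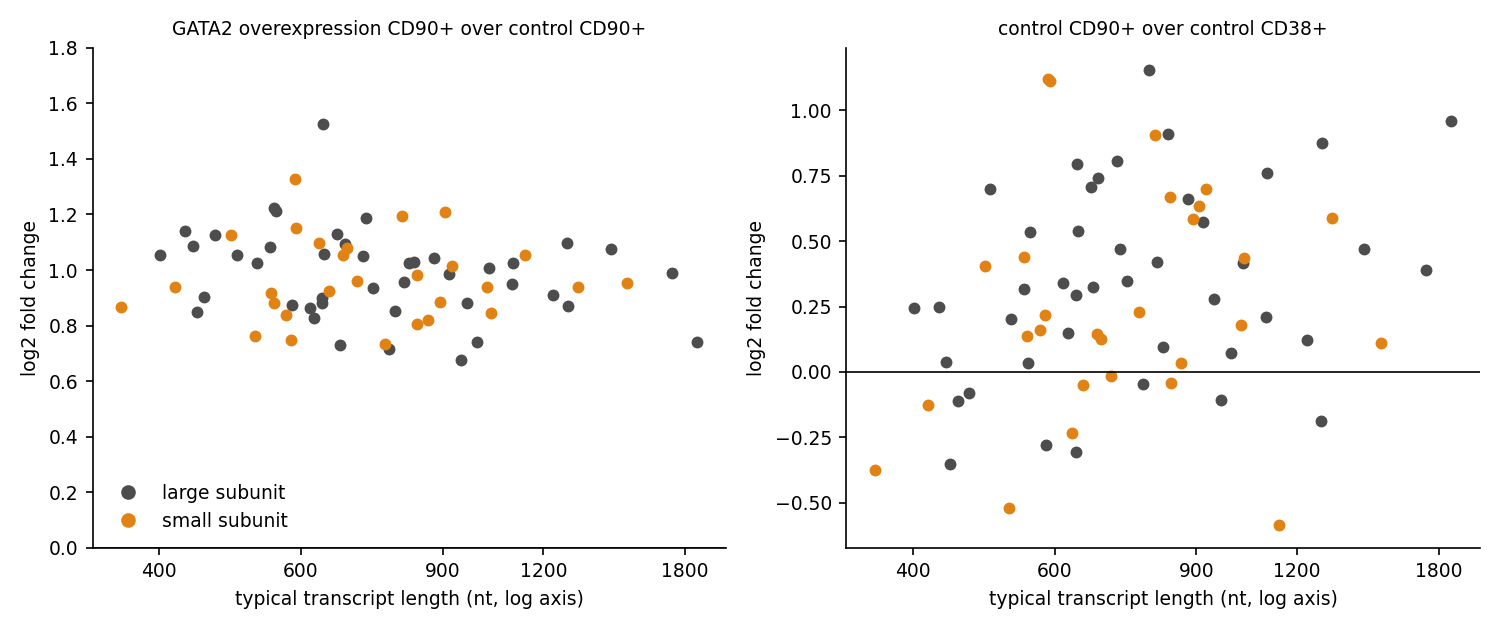
Log2 fold change (vertical axis) against the length of a typical transcript (nucleotides, log axis) for the 71 genes at 50 CPM or more, in GATA2 OE CD90+ over control CD90+ cells (left) and control CD90+ over control CD38+ cells (right), large subunit in grey and small subunit in orange. On the left all points lie between 0.68 and 1.53 at every length, and on the right they spread from -0.59 to 1.15, with 7 of the 12 lower calls under 600 nucleotides.

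Lists of other genes of the pathway are read against all genes tested, of which 38.0% were higher and 39.6% lower in GATA2 OE CD90+ over control CD90+ cells and 41.1% and 39.3% in control CD90+ over control CD38+ cells, with medians of -0.04 and 0.03. With library size only, 4470 of the 16232 genes were higher and 8101 lower in the first of these comparisons. In the second these counts were 9517 and 3854. List counts at that scaling are read against them. Ribosomal protein genes outside the symbol rule are counted apart. Of 9 tested, 7 were higher and 0 lower in GATA2 OE CD90+ than in control CD90+ cells, with a median log2 fold change of 0.69, and 4 were higher and 4 lower in control CD90+ than in control CD38+ cells, with a median of -0.06, or 5 higher and 2 lower and a median of 0.35 with library size only. FAU, which encodes the small-subunit protein eS30, was at 333 ± 8.49 CPM in GATA2 OE CD90+ and 212 ± 7.78 CPM in control CD90+ libraries (1.57-fold higher, adjusted p = 3.03e-12). RPL36AL was at 271 ± 2.17 CPM in control CD90+ and 399.6 ± 26.2 CPM in control CD38+ libraries (1.47-fold lower, adjusted p = 2.16e-10), and RPS27L, a paralog of RPS27 induced by p53, at 133 ± 1.74 CPM in control CD90+ and 346 ± 14.8 CPM in control CD38+ libraries (2.6-fold lower, adjusted p = 6.73e-17). RPL22L1, the paralog of RPL22, was at 31.98 ± 1.29 CPM in control CD90+ and 24.96 ± 1.68 CPM in control CD38+ libraries (1.28-fold higher, adjusted p = 1.94e-05).

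Other mRNAs of the TOP class encode translation factors and RNA-binding proteins. Of 14 tested, 12 were higher and 0 lower in GATA2 OE CD90+ than in control CD90+ cells (median log2 fold change 0.57), and 10 were higher and 2 lower in control CD90+ than in control CD38+ cells (median 0.37). With library size only these counts were 9 and 2, and 13 and 1. EEF1B2, a translation elongation factor, was at 812 ± 10.5 CPM in GATA2 OE CD90+ and 407 ± 8.59 CPM in control CD90+ libraries (1.995-fold higher, adjusted p = 2.22e-15), EIF3F of the initiation factor eIF3 at 581 ± 13.3 CPM in GATA2 OE CD90+ and 288 ± 5.85 CPM in control CD90+ libraries (2.02-fold higher, adjusted p = 1.35e-15), and HNRNPA1, an RNA-binding protein, at 2115 ± 22.8 CPM in GATA2 OE CD90+ and 1103 ± 23.3 CPM in control CD90+ libraries (1.92-fold higher, adjusted p = 1.25e-15). TPT1, a growth-related TOP mRNA, was at 406 ± 0.792 CPM in control CD90+ and 821 ± 39.6 CPM in control CD38+ libraries (2.02-fold lower, adjusted p = 3.48e-15). Among 10 regulators of TOP mRNAs and of ribosome production, 7 were higher and 2 lower in the overexpressing cells, and 3 higher and 6 lower in control CD90+ than in control CD38+ cells, a split that turned to 2 and 5, and 6 and 2, with library size only. MYC, a transcription factor that drives ribosome production, was at 171 ± 5.66 CPM in GATA2 OE CD90+ and 76.7 ± 1.62 CPM in control CD90+ libraries (2.23-fold higher, adjusted p = 3.03e-15). MTOR was at 15.4 ± 0.545 CPM in GATA2 OE CD90+ and 23.3 ± 1.94 CPM in control CD90+ libraries (1.51-fold lower, adjusted p = 4.34e-07) and RPTOR, its partner in mTORC1, at 5.24 ± 0.281 CPM in GATA2 OE CD90+ and 11.5 ± 0.192 CPM in control CD90+ libraries (2.2-fold lower, adjusted p = 1.14e-08), while EIF4EBP1, a translation repressor under mTOR, was at 359 ± 9.59 CPM in GATA2 OE CD90+ and 239 ± 1.36 CPM in control CD90+ libraries (1.5-fold higher, adjusted p = 9.82e-13).

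Assembly factors process ribosomal RNA and build the subunits in the nucleolus. Of 35 tested, 28 were higher and 2 lower in GATA2 OE CD90+ than in control CD90+ cells, with a median log2 fold change of 0.51, and 25 were higher and 6 lower in control CD90+ than in control CD38+ cells, with a median of 0.45. With library size only these counts were 22 and 6, and 33 and 2. NHP2, a protein of the box H/ACA particles that modify ribosomal RNA, was at 129 ± 0.733 CPM in GATA2 OE CD90+ and 52.7 ± 1.23 CPM in control CD90+ libraries (2.46-fold higher, adjusted p = 2.91e-14), and NOP16, a nucleolar assembly factor, at 138 ± 0.792 CPM in GATA2 OE CD90+ and 65.3 ± 0.261 CPM in control CD90+ libraries (2.12-fold higher, adjusted p = 2.83e-15). DDX21, a nucleolar helicase, was at 106 ± 7.25 CPM in GATA2 OE CD90+ and 136 ± 1.31 CPM in control CD90+ libraries (1.28-fold lower, adjusted p = 1.69e-07). EIF6, which keeps the new large subunit from joining the small one, was at 96.8 ± 1.0 CPM in control CD90+ and 219 ± 4.05 CPM in control CD38+ libraries (2.26-fold lower, adjusted p = 7.91e-17). Of 14 genes of RNA polymerase I, which transcribes ribosomal RNA, and its factors, 8 were higher and 2 lower in both comparisons, with medians of 0.31 and 0.41, and with library size only 5 were higher and 5 lower, and 12 and 1. POLR1D, a subunit shared with RNA polymerase III, was at 170.0 ± 5.48 CPM in GATA2 OE CD90+ and 83.7 ± 2.89 CPM in control CD90+ libraries (2.03-fold higher, adjusted p = 1.70e-14), and UBTF, an upstream factor of ribosomal RNA genes, at 32.9 ± 1.66 CPM in control CD90+ and 74.9 ± 2.58 CPM in control CD38+ libraries (2.28-fold lower, adjusted p = 2.51e-13).

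Host genes of small nucleolar RNAs, many of which carry a TOP start, were higher in 10 and lower in 0 of 11 cases in GATA2 OE CD90+ against control CD90+ cells, with a median log2 fold change of 0.76. In control CD90+ against control CD38+ cells 6 were higher and 3 lower, with a median of 0.16, or 9 and 2 with library size only. GAS5, a host gene of this kind, was at 255 ± 2.71 CPM in GATA2 OE CD90+ and 151 ± 1.25 CPM in control CD90+ libraries (1.69-fold higher, adjusted p = 8.33e-15). It was at 151 ± 1.25 CPM in control CD90+ and 309 ± 2.58 CPM in control CD38+ libraries (2.05-fold lower, adjusted p = 8.98e-17). ZFAS1 was at 66.1 ± 3.08 CPM in control CD90+ and 119 ± 13.4 CPM in control CD38+ libraries (1.81-fold lower, adjusted p = 5.88e-10).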

How the data were processed

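RNA-seq libraries of 9 samples in 3 groups of 3 were used, with groups taken from the labels. The authors deposited one table of raw counts per gene symbol, made with HISAT2 alignment to hg38 and featureCounts, per the submitters' processing notes. Their versions, the annotation, the use of strand and the treatment of reads on several genes are not stated, and such reads affect ribosomal protein genes with pseudogenes or overlapping neighbours. CPM and fold changes were computed here with edgeR 4.0.16 in R 4.3.3 (TMM factors, filterByExpr with a minimum count of 10 and total of 15, quasi-likelihood test over all 9 libraries, common biological coefficient of variation 6.72%). A second edgeR fit used the summed counts of the family as library size. DESeq2 1.42.0, limma 3.58.1 and other scalings and filters served as alternatives. Gene models came from GENCODE release 29, starts from RefSeq. The fits were tested on simulated data. For the second fit the changed genes lay outside the family, so calls of members against the family total were not tested there. Replicates differed by more than sampling noise (chi-square 3.96 to 7.84 per degree of freedom). Intervals and p-values cover the spread between these libraries only.

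The members and lists were chosen with earlier results of these data known. Named genes were those with a mean of at least 5 CPM and the 5 highest or lowest fold changes of a comparison, the 4 furthest from the family total in each direction, those not called or against the majority, 14 fixed members and up to 3 genes per direction of each pathway list. RPS2, and the full list of genes called lower or not called in the control comparison, were named after their values had been seen. Some genes that the rule would name are not reported here. Replicate numbers did not pair libraries: deviations of same-numbered libraries had r between -0.0290 and 0.0256, those of other pairs between -0.0318 and 0.0316.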

Additional observations from a re-analysis of the deposited data

How the results depend on the processing

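In GATA2 OE CD90+ over control CD90+ cells 73 to 75 genes were called higher, and in GATA2 OE CD90+ over control CD38+ cells 73 to 75, under every scaling, filter, tool and left-out library tried. The split of control CD90+ over control CD38+ cells was less firm. Of 14 genes called lower, the count was 10 with RLE size factors and with DESeq2, 2 with library size only, 5 with upper-quartile factors, 9 with a filter of at least 1 CPM in 3 libraries, 9 with only the 2 groups compared and 7 with a length and GC trend removed, and 12 to 15 when a library was left out. Of the 14 genes, 3 kept their sign with library size only, 7 with upper-quartile factors, 9 with the trend removed and 13 with the 1 CPM filter. Genes called lower in GATA2 OE CD90+ over control CD38+ cells were 1 with library size only and with upper-quartile factors, and 1 to 2 when a library was left out. Among the genes described in the control comparison, the sign turned, on the log2 scale, with library size only for RPL10 (0.22), RPL26 (0.26), RPL37 (0.10), RPL9 (0.36), RPLP1 (0.058), RPS27 (0.033) and RPS27A (0.40), with upper-quartile factors for RPL10 (0.075), RPL26 (0.11), RPL9 (0.22) and RPS27A (0.25), with the length and GC trend removed for RPL26 (0.078), RPL9 (0.20) and RPS27A (0.17), and with the 1 CPM filter for RPS27A (0.068). With the length and GC trend removed RPL17 turned to -0.021 in GATA2 OE CD90+ over control CD90+ cells. With library size only the median of all genes moved, which turns signs near 0 by construction; for other settings the cause was not tested. The share of counts was 8.19%, 4.97% and 3.07% in GATA2 OE CD90+, control CD90+ and control CD38+ cells with the ribosomal protein genes outside the symbol rule added, and 9.08%, 5.67% and 3.44% without mitochondrial and the 20 most counted other genes. With the replicate block 75 genes were higher and 1 lower, 53 and 14, and 74 and 2 in the 3 comparisons, the same counts as without it. The low genes limit what depth can show: RPS10 and RPL36A had 75 to 250 counts per library.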
